A study of Mus musculus with 7 samples.

Results

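Cdh5, Jup, Ctnnb1, Pecam1, F11r, Esam, Cldn5, Pvrl2, Mllt4 and Jam2 encode the adhesion molecules and cytoplasmic anchors with which endothelial cells hold on to their neighbours. They were taken by symbol and made up 10 of the 27998 gene rows of a single-cell count matrix of the mouse mammary gland. The matrix held 13684 cells from the abdominal #4 glands, with lymph nodes removed, of 3 young (3 to 4 months) and 4 aged (13 to 14 months) mice. All were nulliparous females of a mixed FVB, 129 and C57BL/6J background taken in diestrus, and the cells of each mouse were dissociated with enzymes, captured without sorting and made into 1 library. The counts of each mouse were added up within each of the 13 cell types of the deposited annotation. The mouse is thus the replicate. Tests of age within a type set a difference against the spread between mice of the same age. Tests between types had mouse as a block and set it against the variation left after that. The comparisons asked how the genes differ between vascular endothelial and epithelial cells, and how they differ with age. Vascular endothelial cells numbered 1819, beside 1670 myoepithelial, 2138 hormone-sensing luminal (HS) and 4820 alveolar luminal (AV) cells.

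Endothelial cells are joined by adherens junctions and tight junctions. In the adherens junction VE-cadherin (Cdh5) binds its copy on the next cell and is tied inside the cell to beta-catenin (Ctnnb1) or plakoglobin (Jup), while nectin 2 (Pvrl2) is tied to actin through afadin (Mllt4). In the tight junction claudin 5 (Cldn5) seals the cleft beside the junctional adhesion molecules JAM-A (F11r), JAM-B (Jam2) and ESAM (Esam), and PECAM1 (Pecam1) lies along the same contacts. Cdh5, Pecam1, Cldn5, Esam and Jam2 are known as endothelial genes, whereas Jup, Ctnnb1, F11r, Pvrl2 and Mllt4 also serve epithelial junctions, where E-cadherin takes the place of VE-cadherin and plakoglobin is a part of desmosomes.

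Each mouse gave between 6652599 and 16999625 unique molecular identifiers (UMIs, each standing for 1 captured transcript), of which its vascular endothelial cells held 727600 to 2058371. The 3 young libraries had 145 to 409 vascular endothelial cells and the 4 aged ones 171 to 285. Aged endothelial cells held a larger share of ribosomal protein UMIs, 26.3% to 30.8% against 18.7% to 19.4%, and a smaller mitochondrial share, 2.35% to 2.53% against 3.10% to 3.17%, and with ribosomal and mitochondrial genes left out of the fit the same number of junction genes, 7, were called lower with age as with them. Of all barcodes, 101 occurred in more than 1 mouse, and 1 of them was vascular endothelial in both. All 10 vascular endothelial markers on a separate list (Kdr, Flt1, Tie1, Tek, Emcn, Egfl7, Eng, Sox17, Ecscr and Robo4) were called higher in these cells than in each of the 3 epithelial types. Eng and Sox17 of this list, and the members Cdh5 and Pecam1, were among the markers by which the study identified these cells. Their height here follows from the labels and does not test them.

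In CPM, the UMIs of a gene scaled to all UMIs of that cell type in a mouse, 5 of the 10 genes were endothelial and 5 were shared with the epithelium. Values below are means over mice, set side by side across cell types for 1 gene at a time. Cdh5 averaged 524 CPM in vascular endothelial cells and between 2.24 and 5.22 CPM in the myoepithelial, HS and AV cells. Pecam1 stood at 695 CPM against 4.97 to 9.32 CPM in the same 3 types, and Esam at 516 CPM against 4.06 to 4.43 CPM. Jam2 stood at 239 CPM in vascular endothelial cells, and its lowest mouse there, at 204.1 CPM, lay above the highest pericyte sum. Cldn5 had its highest mean in lymphatic endothelial cells, 3006 CPM over 5 mice, against 1389 CPM in vascular endothelial cells, and the ranges of these neighbours overlapped.

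The anchors and the shared adhesion molecules had no such gap. Jup averaged 116 CPM in vascular endothelial cells, below myoepithelial (201 CPM), HS (161 CPM) and AV cells (168 CPM). F11r averaged 182 CPM against 112, 135 and 93.7 CPM, Ctnnb1 137 CPM against 112, 84.4 and 90.6 CPM, and Pvrl2 72.2 CPM against 36.3, 65.6 and 118 CPM, in the same order. For all 4 genes, types next to each other in the order of levels overlapped. Mllt4 averaged 94.0 CPM in vascular endothelial cells, the highest mean of the 13 types.

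**Figure D1:**
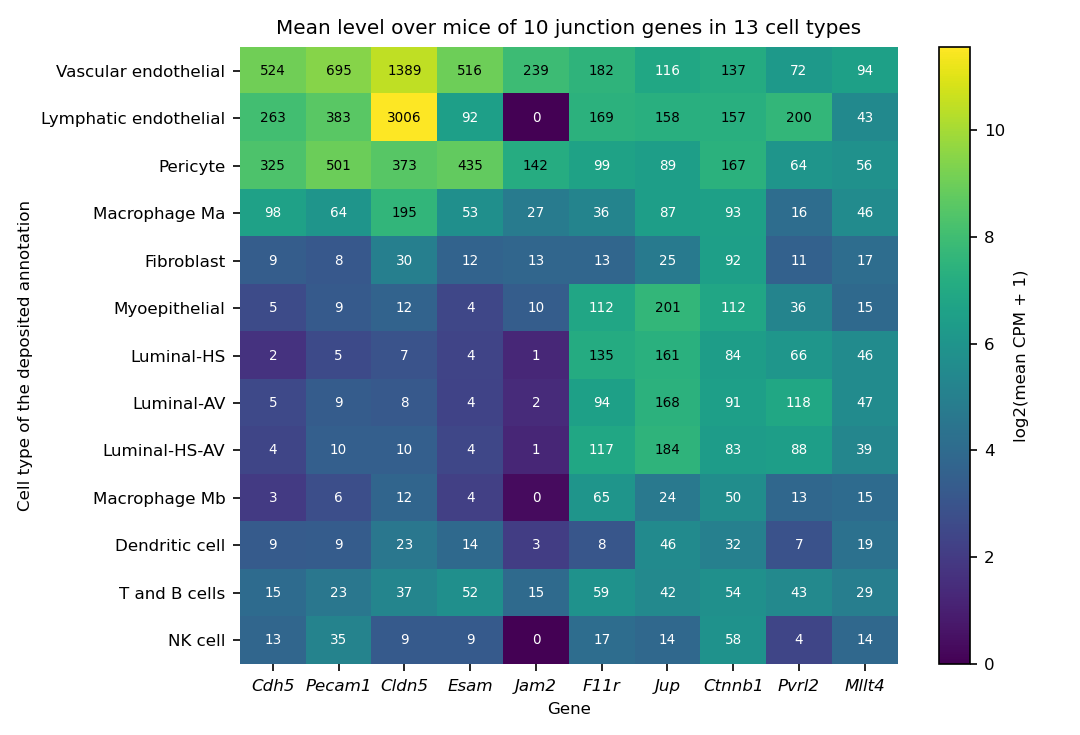
Heat map of the mean CPM over mice of each of the 10 junction genes (columns) in each of 13 cell types (rows), with the mean printed in the cell and colour on a log2(mean CPM + 1) scale. Brighter colours mark higher levels. Cdh5, Pecam1, Cldn5, Esam and Jam2 are brightest in endothelial cells and pericytes, apart from Jam2 at 0 in lymphatic endothelium. In epithelial types Jup, Ctnnb1, F11r, Pvrl2 and Mllt4 are brighter than those genes.

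Lymphatic endothelial cells were few, 28 in all, with at least 3 in 5 of the mice, and had no Jam2 UMI in any of the 5 among 18940 to 49506 UMIs per mouse, which allows a level of up to 19.7 CPM over the 5 mice (3 counts, counting error only). Cells labelled pericytes, which wrap small vessels and are not endothelial, carried 325 CPM of Cdh5 and 501 CPM of Pecam1. Among these 349 cells, 279 held a UMI of Cdh5 or Pecam1, and 218 held both that and a UMI of the pericyte genes Rgs5, Des or Notch3. A UMI of Cdh5 or Pecam1 was found in 94.4% of young but 51.7% of aged pericyte-labelled cells, against 5.73% of AV cells at a median depth of 6632 UMIs per cell and 5065 in pericytes. The pericyte sums therefore hold endothelial transcripts, and whether these came from mixed droplets was not tested.

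Promoter sequence is shown for 3 members that stand for the patterns above, the endothelial Cldn5 and the shared F11r and Jup. RefSeq windows on GRCm38.p6 were at hand for 6 of the 10 members, with a pair of windows for Ctnnb1, and none for Cdh5, Pecam1, Esam and Jam2. On GRCm38 the annotated genes span chr16:18776847-18778262 (Cldn5), chr1:171437535-171464603 (F11r) and chr11:100368958-100397763 (Jup), so that the end of the F11r window lies inside its gene. Each run is the 250 bases before the RefSeq start, 5′ to 3′ on the strand of the gene. Capitals mark GGGCGG or its reverse complement CCGCCC, the core read by Sp1 family factors, and GGAA or TTCC, the core read by ETS family factors.
Cldn5, chr16:18776597-18776846, plus strand: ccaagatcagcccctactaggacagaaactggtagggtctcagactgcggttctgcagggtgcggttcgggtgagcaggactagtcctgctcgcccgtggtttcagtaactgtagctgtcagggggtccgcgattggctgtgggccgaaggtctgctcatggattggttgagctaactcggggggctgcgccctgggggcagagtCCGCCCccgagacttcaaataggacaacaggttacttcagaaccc
F11r, chr1:171437311-171437560, plus strand: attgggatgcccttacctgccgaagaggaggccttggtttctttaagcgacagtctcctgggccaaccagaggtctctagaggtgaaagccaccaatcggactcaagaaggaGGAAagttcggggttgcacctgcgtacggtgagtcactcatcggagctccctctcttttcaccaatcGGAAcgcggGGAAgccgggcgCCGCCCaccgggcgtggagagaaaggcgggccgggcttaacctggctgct
Jup, chr11:100397791-100398040, minus strand: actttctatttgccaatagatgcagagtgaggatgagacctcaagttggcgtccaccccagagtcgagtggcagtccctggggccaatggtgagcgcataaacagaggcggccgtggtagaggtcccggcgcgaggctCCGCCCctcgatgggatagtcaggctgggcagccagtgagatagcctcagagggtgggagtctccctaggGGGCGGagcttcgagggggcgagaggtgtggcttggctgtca
GGGCGG or CCGCCC occurred in all 7 member windows, against 32.7% of the 32851 windows in the table, and GGAA or TTCC in 4 of the 7, against 93.4%. The 3 windows without GGAA or TTCC were those of Cldn5, Jup and Mllt4. The member windows held 59.6% to 82.8% G and C, above the table's median of 52.4%. No match of either motif overlapped the other.

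Vascular endothelial cells were tested against each epithelial type with edgeR's quasi-likelihood test on the summed counts, with mouse as a block. To be called, a gene needed a p below 0.05 after Benjamini-Hochberg adjustment over 9405 genes and a change of at least 1.5-fold. Since the types were clustered on these counts, the calls describe the types and do not test them. Against myoepithelial cells 8 of the 10 members were called higher and 1 lower, where 26.8% of all genes were called higher and 22.4% lower. Against HS cells 7 were called higher and 0 lower (28.6% and 28.0% of all genes), and against AV cells 7 higher and 2 lower (24.7% and 28.2%). The 5 endothelial genes led in all 3 tests and were higher in 7 of 7 mice. Log2 differences were 7.18, 8.01 and 7.19 for Cdh5 against myoepithelial, HS and AV cells, 7.27, 7.89 and 7.69 for Cldn5, and 6.94, 7.15 and 7.38 for Esam. Pecam1 differed by 6.55, 7.25 and 6.23 on the same scale, and Jam2 by 4.82, 7.14 and 7.09, its smallest value being that against myoepithelial cells.

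Among the shared genes, afadin (Mllt4) was called higher in endothelium than in each type, with log2 differences of 2.71, 0.98 and 0.73 against myoepithelial, HS and AV cells. Plakoglobin went the other way. Jup was called lower than in myoepithelial cells (log2 difference -1.18 ± 0.33 SE, adjusted p = 0.0038) and AV cells (-0.92 ± 0.32, adjusted p = 0.016), and against HS cells its value of -0.68 ± 0.32 was not called (adjusted p = 0.066). Nectin 2 differed by the epithelial type it was set against. Pvrl2 was called higher than in myoepithelial cells (0.95 ± 0.30, adjusted p = 0.0085) and lower than in AV cells (-1.0 ± 0.27, adjusted p = 0.0021), and against HS cells the log2 difference was 0.06 with a 95% interval from -0.47 to 0.59. F11r was called higher than in myoepithelial and AV cells, by 0.69 and 0.74, and its 0.40 against HS cells lay under the fold minimum. Ctnnb1 was called higher only against HS cells, by 0.66, and the intervals of its differences ran from -0.14 to 0.54 against myoepithelial cells and from -0.01 to 0.64 against AV cells.

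**Figure D2:**
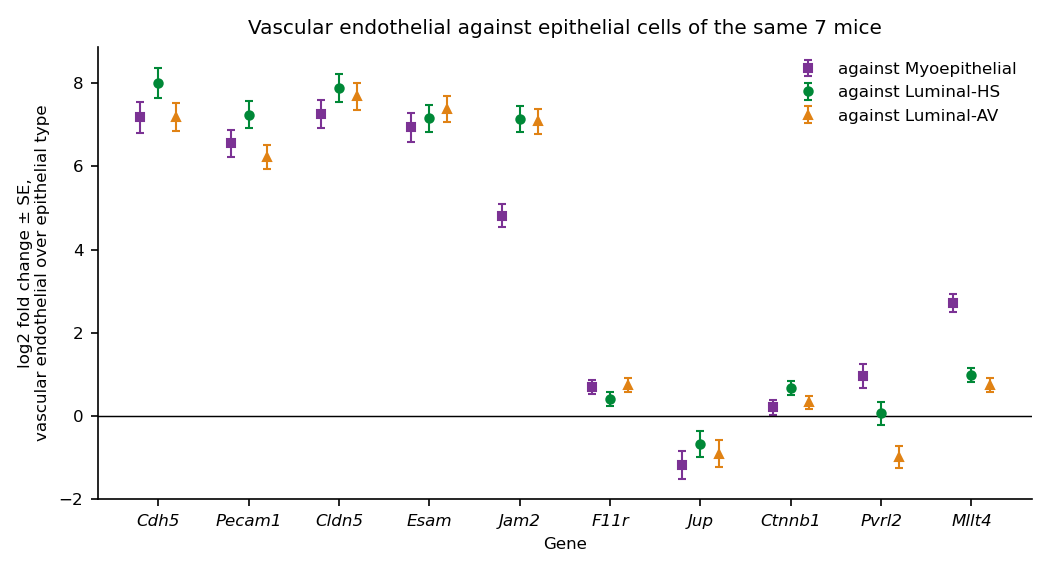
Log2 fold change of vascular endothelial over myoepithelial, HS or AV cells for each of the 10 genes, over 7 mice, with bars for the standard error (SE) worked out from edgeR's quasi-likelihood test. Cdh5, Cldn5, Esam, Pecam1 and Jam2 lie between 4.82 and 8.01, and Jup, Ctnnb1, F11r and Pvrl2 lie within -1.18 and 0.95.

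These contrasts were also fitted within each age for all 10 members. In young mice alone 8, 9 and 8 were called higher and 0 lower against myoepithelial, HS and AV cells. In aged mice alone 6, 6 and 5 were called higher and 1, 2 and 2 lower. The shares of all genes called in these fits are not given here. Values follow for Jup and Pvrl2, the members called lower in a test above. In the young mice alone Jup differed by 0.30, 0.28 and -0.07 on the log2 scale from myoepithelial, HS and AV cells, and in the aged mice alone by -2.66, -1.92 and -2.07. Pvrl2 stood at 1.17, 0.84 and -0.02 in the young mice and 0.53, -0.70 and -1.80 in the aged mice. The young and aged values were fitted separately here, and the test of their difference is given further on. Jup in vascular endothelial cells was higher than in AV cells in 2 of 7 mice and higher than in myoepithelial cells in 3 of 7.

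In aged vascular endothelial cells 7 of the 10 junction genes were called lower than in young ones: Jup, Cldn5, Pvrl2, Mllt4, Ctnnb1, F11r and Esam. The background was 12.0% of the 7864 genes tested called lower and 14.7% called higher, and 0 members were called higher. The members' median log2 change was -0.78, against -0.05 for all genes tested. Age group and any difference in library processing cannot be told apart in this comparison. The study itself had named 7 of the members as lower with age from these samples, so that their direction is not independent evidence. Those were Ctnnb1, Jup, Pvrl2, Cdh5, Mllt4, Cldn5 and F11r, which is not the same set as the genes called here. Cdh5 was named there and not called here, and Esam was called here and is not among those named. The study tested cells with a Wilcoxon test and zingeR-edgeR, not sums per mouse, and its text names these genes as examples. A gene that its text does not name may still be among those it found.

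Plakoglobin (Jup) showed the largest change of the 10. Its level was 201, 261 and 213 CPM in the 3 young mice and 31.8, 35.6, 38.3 and 29.8 CPM in the 4 aged mice. The groups lay far apart, and the mean was 6.64-fold higher in the young. In edgeR's quasi-likelihood test with Benjamini-Hochberg adjustment Jup fell by 2.39 on the log2 scale (SE 0.16, adjusted p = 7.8e-07). Beta-catenin (Ctnnb1), which takes the same place on the cadherin tail, stood at 160.3, 190.0 and 247 CPM in young and 109, 81.0, 106 and 64.7 CPM in aged mice. The groups did not overlap, and the change was smaller, -0.80 (SE 0.20, adjusted p = 0.010 in the same test). Cdh5 itself, at 638, 781 and 700 CPM in young and 412, 365, 423 and 349 CPM in aged mice, was 1.82-fold lower in mean CPM with no overlap. Its fitted log2 change of -0.52 (SE 0.14, adjusted p = 0.013) was under the fold minimum, and it was not called.

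Claudin 5 had the largest fall among the tight junction genes of the 10. Cldn5 stood at 1898, 2293 and 2764 CPM in young and 813, 652, 848 and 454 CPM in aged mice, a log2 change of -1.40 (SE 0.20, edgeR adjusted p = 1.9e-04). Every aged mouse lay below every young one, and its share of all UMIs of the 10 genes went from 37.8% to 46.2% in young to 20.2% to 29.0% in aged mice. The adhesion molecules beside it were lower without overlap as well. Esam stood at 785, 806 and 612 CPM in young and 341, 408, 357 and 301 CPM in aged mice, and F11r at 257, 290 and 239 CPM against 102, 136, 140 and 108 CPM. Their log2 changes were -0.71 (SE 0.14) and -0.76 (SE 0.15), each with an edgeR adjusted p of 0.0017.

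The nectin and afadin pair was lower together. Pvrl2 stood at 147, 121 and 94.8 CPM in young and 46.6, 39.8, 23.2 and 33.0 CPM in aged mice, and Mllt4 at 144, 158 and 126 CPM against 61.4, 51.7, 71.3 and 45.1 CPM. Both were separate between the ages, with log2 changes of -1.43 (SE 0.22, edgeR adjusted p = 2.8e-04) and -0.98 (SE 0.17, adjusted p = 9.0e-04). PECAM1 and JAM-B differed from the rest. Pecam1 stood at 556, 639 and 723 CPM in young and 794, 794, 717 and 644 CPM in aged mice, which overlap, with a log2 change of 0.55 (SE 0.14, adjusted p = 0.011) under the fold minimum. Jam2 stood at 235, 295 and 261 CPM in young and 240.5, 219, 204.1 and 219 CPM in aged mice, and its log2 change of 0.09 had a 95% interval from -0.19 to 0.38 (adjusted p = 0.66).

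**Figure D3:**
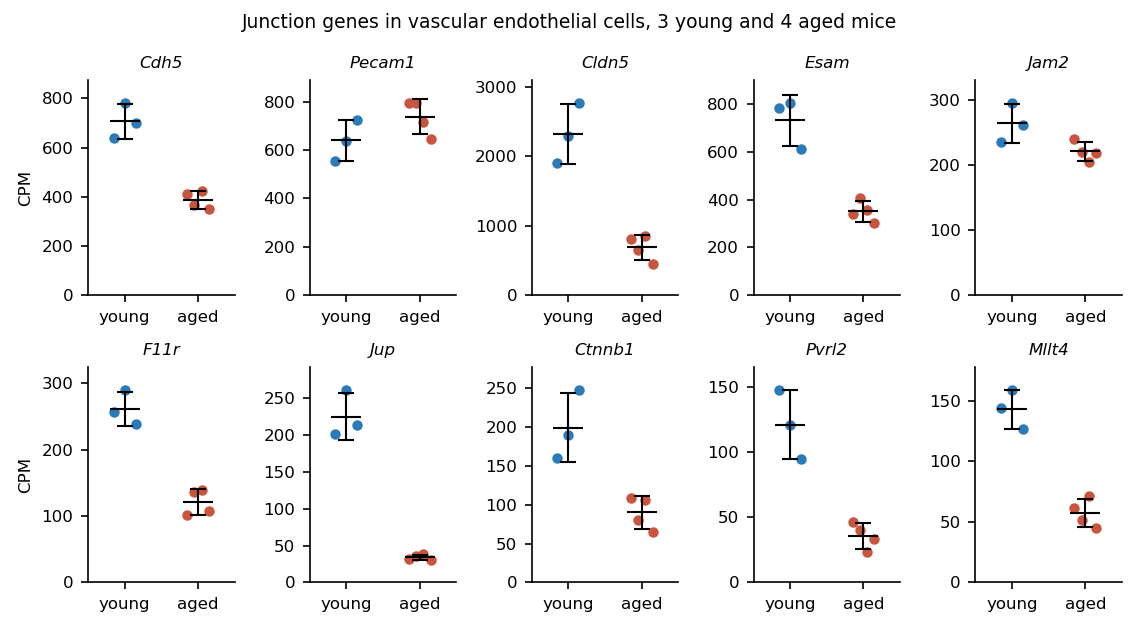
CPM of each junction gene in vascular endothelial cells, 1 point per mouse (3 young, 4 aged), with bars for mean ± SD. The young and aged points are apart for 8 genes and overlap for Pecam1 and Jam2.

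In all, 8 members had every aged mouse below every young mouse in CPM, and 0 the reverse, where 35% of the 7864 genes had that lower pattern. The fitted changes differ from the ratios of CPM because edgeR's TMM factors rescale the libraries, which raised the value of every member. With library totals in place of TMM factors the median of all genes moved by -0.36, and the higher ones among the genes called went from 55.0% of 2099 to 22.4% of 3026. Cdh5 was then called lower (-0.87, adjusted p = 2.6e-04), Pecam1 went to 0.20 and Jam2 to -0.27, so that the direction of Jam2 depends on the scaling.

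Genes of capillary and of venous endothelium also differed between the young and aged samples, and a change in the kinds of cell cannot be told apart here from a change in level within cells. Of 9 capillary genes 8 were called lower in aged vascular endothelial cells, among them Btnl9 (-3.79), Timp4 (-3.20) and Gpihbp1 (-3.15), which anchors lipoprotein lipase on capillary walls, and their summed level was 42746 to 52391 CPM in young against 13873 to 15921 CPM in aged mice. Of 8 venous genes 6 were called higher, among them Sele (3.49), a selectin that catches leukocytes, Ackr1 (2.99) and Vcam1 (2.90), with a summed level of 1866 to 2305 CPM in young against 6834 to 8444 CPM in aged mice. Of 9 arterial genes 4 were called higher (Bmx 2.93, Gja4 2.40, Stmn2 2.32) and 2 lower (Dll4 -1.16, Efnb2 -1.05). Cells with a UMI of Sele, Selp, Vwf or Ackr1 made up 35.2% to 45.2% of the young and 87.4% to 91.8% of the aged vascular endothelial cells.

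The cells were also split by those 4 genes, a choice made after the data were seen. Since Sele and Ackr1 themselves rose with age, the split depends on age, and it describes where the members were low without separating a change in the makeup of the cells from a change within them. Within each mouse Cldn5, Esam, F11r, Jup, Ctnnb1 and Mllt4 were lower in the cells with such a UMI than in those without, in 3 of 3 young and 4 of 4 aged mice. Cldn5 averaged 1311 CPM in young cells with such a UMI and 3066 CPM in those without, and 484 CPM and 2720 CPM in the aged. Jup averaged 113 CPM and 307 CPM in the young and 25.6 CPM and 113 CPM in the aged. The other 4 members did not show this in every mouse. Cdh5 was lower in such cells in 2 of 3 young and 3 of 4 aged mice, Pvrl2 in 3 of 3 and 2 of 4, Pecam1 in 0 of 3 and 3 of 4, and Jam2 in 0 of 3 and 2 of 4.

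Among the cells without such a UMI, of which the aged mice kept 14, 30, 23 and 25, 2 of the 10 members were called lower with age, where 6.37% of 2118 genes were. These were Jup (log2 change -1.33, edgeR adjusted p = 0.0068) and Pvrl2 (-1.97, adjusted p = 0.020). Both rest on few UMIs in Aged A to D, 3, 19, 15 and 20 of Jup and 7, 2, 1 and 6 of Pvrl2. For Pvrl2 this made 100.9, 16.4, 7.5 and 42.1 CPM, and the lowest young mouse stood at 108.8 CPM. Esam stood at -0.01 (adjusted p = 0.99) and Cldn5 at -0.14 (adjusted p = 0.70), against -0.71 and -1.40 in all cells. F11r stood at -0.46 (adjusted p = 0.18), Ctnnb1 at -0.32 (0.43) and Mllt4 at -0.81 (0.090). Among only the cells with such a UMI 7 members were called lower (9.45% of 6497 genes). There Jup stood at -1.84, Pvrl2 at -1.18, Cldn5 at -1.13 (adjusted p = 0.0044), Ctnnb1 at -0.77, Mllt4 at -0.71, F11r at -0.65 and Esam at -0.64. Fewer cells were left in the first of these tests, and how far that lowers its count was not tested.

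**Figure D4:**
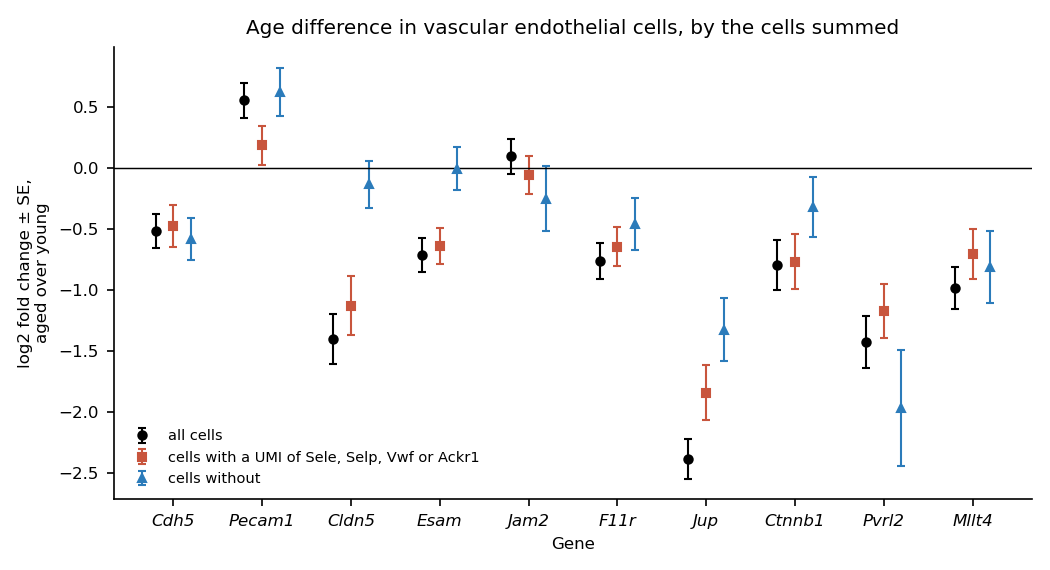
Log2 fold change of aged over young vascular endothelial cells, with bars for the SE, for all cells, cells with a UMI of Sele, Selp, Vwf or Ackr1, and cells without one. For Cldn5 and Esam the value without such cells lies near 0 (-0.14 and -0.01), whereas for Jup (-1.33) and Pvrl2 (-1.97) it stays below -1. The Pvrl2 value rests on 7, 2, 1 and 6 UMIs in Aged A to D, and the Jup value on 3, 19, 15 and 20.

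Markers of other cell types in the same sums were also lower or higher with age. The 8 pericyte markers summed to 135 to 436 CPM in young and 9.1 to 83.8 CPM in aged vascular endothelial cells, with 3 of 4 tested called lower (Kcnj8, Rgs5, Higd1b). The 6 fibroblast markers summed to 66.4 to 339 CPM and 15.2 to 66.7 CPM, with 3 of 3 called lower (Col1a1, Col3a1, Dcn). The 7 epithelial markers summed to 381 to 643 CPM and 294 to 484 CPM, with 2 of 6 called higher (Krt17, Krt14) and 1 lower (Krt19). The 6 immune markers summed to 199 to 603 CPM and 619.5 to 8702 CPM, with Cd74 called higher and Lyz2 lower, and the pan-leukocyte gene Ptprc near 0. Of the 7 lymphatic markers 1 was tested, Flt4, and was called lower. Of 13 genes that respond to tissue dissociation 3 were called higher (Ier3, Atf3, Zfp36) and 2 lower (Fosb, Egr1). When cells with a UMI of Epcam, Ptprc, Col1a1 or Rgs5 were left out, the same 7 members were called lower.

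The share of vascular endothelial cells with a UMI of a gene gave the same split of the members. Each cell was thinned to 2000 UMIs, which no cell fell under, and the mice were compared by exact permutation, two-sided, for which the smallest p with 3 against 4 mice is 0.0286. Cldn5 was found in 79.1% ± 2.59 of young and 30.9% ± 6.88 of aged cells (SD, n = 3 and 4, exact permutation p = 0.0286). Esam was found in 74.1% ± 5.68 and 44.8% ± 5.98, Cdh5 in 73.4% ± 4.99 and 52.6% ± 4.57, and F11r in 42.6% ± 2.13 and 21.2% ± 4.11. Jup was found in 35.1% ± 3.59 of young and 7.0% ± 1.17 of aged cells, and Ctnnb1 in 33.6% ± 6.16 and 16.0% ± 6.14. Mllt4 was found in 26.2% ± 2.14 and 8.90% ± 1.60, and Pvrl2 in 22.1% ± 3.08 and 6.76% ± 2.34. These 8 members had every aged mouse below every young mouse, where 25.3% of the 7864 genes did, and each had the exact permutation p of 0.0286. Pecam1 was found in 67.1% ± 5.51 and 74.9% ± 1.73 (exact permutation p = 0.0571), and Jam2 in 39.6% ± 4.47 and 33.4% ± 3.01 (exact permutation p = 0.143). In AV cells, which should lack them, the endothelial genes were found in 0.27% (Jam2) to 1.33% (Pecam1) of cells at 2000 UMIs. The median depths before thinning were 6632 UMIs in AV and 4907 in vascular endothelial cells. Without thinning the pooled shares in vascular endothelial cells were 60.9% for Cldn5, 65.8% for Jam2, 84.5% for Esam, 88.3% for Cdh5 and 92.7% for Pecam1.

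At that depth a young vascular endothelial cell held UMIs of 4.71 to 5.12 of the 10 genes on average and an aged one 2.67 to 3.14. Cells with 5 or more of the genes made up 54.3% to 66.9% in young and 7.66% to 16.9% in aged mice. An AV cell held 0.57 to 1.18 of the 10.

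**Figure D5:**
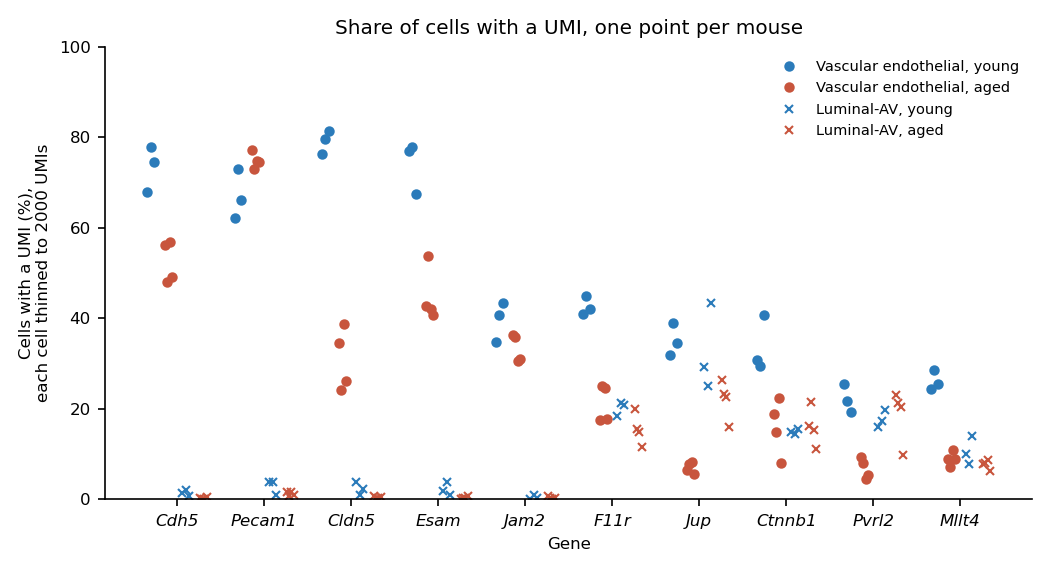
Percent of cells with at least 1 UMI of each junction gene after thinning to 2000 UMIs per cell, 1 point per mouse, in vascular endothelial and AV cells. Cldn5 drops from 79.1% in young to 30.9% in aged endothelial cells, and the AV points of Cdh5, Pecam1, Cldn5, Esam and Jam2 lie near 0.

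The change with age in vascular endothelial cells was then tested against that in each epithelial type, with an interaction term over 10686 genes. The study had named 7 of the members for their fall in this endothelium in these mice. Calls lower in endothelium are therefore not independent evidence, and the shares of all genes are not a like background for them. Jup differed in all 3 tests, its endothelial change lying below the epithelial one by 2.94, 2.28 and 2.07 log2 units for myoepithelial, HS and AV cells (edgeR adjusted p = 2.6e-08, 6.1e-07 and 1.1e-06). It was the only member called against myoepithelial cells, where 10.2% of all genes were called. Against HS cells 3 members were called (8.64% of all genes), the other two being F11r (-1.10, adjusted p = 0.0038) and Pvrl2 (-1.62, adjusted p = 0.0026). Against AV cells 6 were called (10.6% of all genes). Pvrl2 (-1.83, adjusted p = 4.1e-04), Ctnnb1 (-1.15, adjusted p = 0.0018) and F11r (-0.78, adjusted p = 0.038) lay lower in the endothelium. Cdh5 (1.56, adjusted p = 0.039) and Cldn5 (1.42, adjusted p = 0.023) lay higher, with AV levels of 4.55 to 12.6 and 10.8 to 26.0 CPM in young and 0.70 to 3.29 and 0.997 to 2.47 CPM in aged mice. Only 0.35% and 0.75% of AV cells held a UMI of Cdh5 and of Cldn5 at 2000 UMIs, and whether these came from free RNA was not tested. Neither gene was called with DESeq2, without Young A or without Aged B, and Cdh5 was also not called without Young B, Aged C or Aged D.

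Within the other types few members were called, and not all were tested in each. All 10 passed the filter on low counts in pericyte-labelled and in AV cells, 7 in myoepithelial cells, 7 in HS cells and 5 in fibroblasts. In pericyte-labelled cells Cdh5 (-0.99, edgeR adjusted p = 0.0078), F11r (-1.35, adjusted p = 0.010) and Mllt4 (-1.18, adjusted p = 0.028) were called lower, 3 of 10 where 4.61% of 2601 genes were, and the value of each member was below 0. Cdh5 there stood at 441, 535 and 444 CPM in young and 236, 191, 237 and 189 CPM in aged mice, alongside the smaller share of aged pericyte-labelled cells with an endothelial UMI given above. In myoepithelial cells Cldn5 (-2.05, adjusted p = 0.028), Pvrl2 (-0.91, adjusted p = 0.025) and Mllt4 (-1.17, adjusted p = 0.041) were called lower (14.8% of 6740 genes). None of the 3 was called without Young C or without Aged D. Cldn5 was the 1 member called lower in HS cells (-2.88, adjusted p = 0.0057, 2.33% of 8457 genes), in AV cells (-2.82, adjusted p = 0.0036, 3.26% of 11012 genes) and in fibroblasts (adjusted p = 0.0016, 1.11% of 5513 genes). In fibroblasts its UMIs numbered 242, 58 and 217 in young and 1, 0, 0 and 1 in aged mice. Raw UMIs rise with the number of fibroblasts, which was 581, 184 and 1034 in young and 121, 41, 15 and 17 in aged mice. Cldn5 was also low in the epithelial types, with a mean of 12.0 CPM in myoepithelial and 6.69 CPM in HS cells. At 2000 UMIs, 0.84% of myoepithelial and 1.31% of HS cells held a UMI of it, and whether these came from free RNA was not tested. No member passed the filter on low counts in Mb macrophages. Jup, Ctnnb1 and Esam were called in none of the types in which they were tested. The edgeR adjusted p of the interaction for Esam was 0.067 against AV, 0.58 against HS and 0.64 against myoepithelial cells.

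The partners of these genes, from lists that share no member with the 10, moved both ways with age in vascular endothelial cells. Of all genes tested 14.7% were called higher and 12.0% lower, with a median log2 change of -0.05. Of 16 adherens junction partners tested 4 were called higher and 2 lower, the lower ones near that share, with a median of -0.29. The actin-bound Pdlim1 (1.69), the nectin-like Pvr (1.29) and alpha-actinin Actn1 (1.17) rose, and Ctnnbip1, an inhibitor of beta-catenin (-2.12), and the receptor phosphatase Ptprm (-0.69) fell. Of 15 tight junction partners 2 were called higher and 5 lower, with a median of -0.53. Cldn15 (-2.90), another claudin of this endothelium, and the scaffolds Magi3 (-1.18) and Tjp1 (-0.90), known as ZO-1, fell, and paracingulin Cgnl1 (1.41) and Ybx3 (1.08) rose. Of the desmosome genes, Perp rose by 2.67 and plakophilin 4 (Pkp4) fell by 1.20 on the log2 scale, the 2 tested of 10. Of 4 gap junction genes tested Gja4 (2.40), which is also on the arterial list, and Gja1 (0.69) rose.

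Of 12 other adhesion molecules of the endothelial surface 6 were called higher and 0 lower, led by Sele (3.49), Vcam1 (2.90) and Icam1 (2.51), which bind leukocytes, and of these Sele and Vcam1 are also on the venous list. Among 36 regulators of endothelial junctions 4 were called higher and 5 lower, shares near the 14.7% and 12.0% of all genes, with a median of -0.01. The kinase Yes1 (1.47), Vegfa (1.34) and angiopoietin 2 (Angpt2, 0.86) rose, and the transcription factors Sox18 (-1.77) and Sox17 (-1.17) and the VEGF receptor Kdr (-1.31) fell. Of the 10 vascular endothelial markers Emcn rose by 0.92, and Kdr, Sox17 and Flt1 (-0.63) fell.

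Set against the epithelial types, the partner lists differed in direction. Of all genes 26.8%, 28.6% and 24.7% were called higher against myoepithelial, HS and AV cells, and 22.4%, 28.0% and 28.2% lower. Desmosome genes were mostly lower in endothelium, 5, 5 and 6 of 7 tested against myoepithelial, HS and AV cells, with plakophilin 3 (Pkp3) at -5.10, -4.06 and -4.11. The exception was Pkp4, which was called higher by 0.72, 3.14 and 2.13. Tight junction partners went both ways, with 5, 11 and 7 of 26 called higher and 10, 14 and 15 lower. Their higher counts against myoepithelial and AV cells lay below or near the share of all genes. Cldn15 was higher by 5.90, 7.41 and 6.34, while the epithelial claudins Cldn4 and Cldn8 were lower than in HS cells (-5.53 and -6.68) and AV cells (-5.46 and -5.75). Of 20 adherens junction partners 9, 13 and 12 were called higher and 5, 3 and 3 lower. The VE-cadherin phosphatase Ptprb was higher by 6.05, 6.68 and 6.26, and E-cadherin (Cdh1) lower, at -3.94, -4.26 and -4.40. The regulators were mostly higher, 27, 28 and 30 of 36, with Rasip1, a GTPase effector in vessel formation, at 7.25, 8.03 and 7.80.

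Among 9106 genes with at least 20 CPM in some type, the profile of Cdh5 over the 13 types was most like those of Rasip1 (Pearson r = 0.985 of mean log2(CPM + 1)), Pecam1 (0.979), Emcn (0.970), Adgrf5 (0.967) and Unc45b (0.962), all at their highest in vascular endothelial cells. Among the genes most like F11r were Fzd6 (0.884), Pvrl2 (0.878), Tm4sf1 (0.868) and Itga6 (0.861), and these had their highest level in lymphatic or vascular endothelial or myoepithelial cells. The points are cell types of the same 7 libraries, and the correlations are a description.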

How the data were processed

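The authors deposited a table of raw counts of UMIs, made from 10x Chromium 3′ v2 libraries mapped to mm10 with Cell Ranger 2.0 per the labels, with cells already filtered on UMIs, genes and mitochondrial share, and a cell type name for each cell. Per the methods the upper limits on UMIs and genes were set against doublets, which were also estimated, and no doublet caller was run here.

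Counts were summed per mouse and type (at least 3 cells) and tested with edgeR 4.0.16 in R 4.3.3 (TMM, filterByExpr, quasi-likelihood test, Benjamini-Hochberg adjustment over all genes tested), with aged against young mice in 1 fit per type and the mouse as a block between types. A call needed an adjusted p below 0.05 and 1.5-fold, and the interaction an adjusted p below 0.05. DESeq2 1.42.0 was an alternative. On simulated counts, only the age test of vascular endothelial cells and the type and interaction tests against AV cells were scored. The simulation had no mouse effect and used no fold minimum. Its changes were larger than most age changes of the members, so it does not cover calls of small changes. The members and gene lists were chosen with earlier results of these data known. Named partners are the called genes of each list, at most 3 per direction by size of change. Mice are called Young A to C and Aged A to D after the labels. Shares of cells are counting estimates that cover sampling of UMIs only. Promoters are from RefSeq. Of the genes whose profile was most like that of F11r, 1 is not reported here.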

Additional observations from a re-analysis of the deposited data

Results flagged for a closer look

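Of 60 sets of 4 aged mice, 5 held a mouse whose gap to the nearest of the others took up a larger share of the range than Dixon's critical value allows, where chance gives about 1 in 20. Jam2 in myoepithelial cells stood at 21.5 CPM in Aged C against 4.56 to 6.43 CPM in the other aged mice. Pecam1 in HS cells stood at 8.13 CPM in Aged A against 2.72 to 3.55 CPM. In AV cells Cldn5 stood at 0.997 CPM in Aged B against 2.26 to 2.47 CPM, and Pvrl2 at 59.0 CPM in Aged D against 137 to 149 CPM. Esam was found in 53.7% of thinned vascular endothelial cells of Aged B against 40.7% to 42.7% in the others.

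The change with age in vascular endothelial cells less that in an epithelial type, tested with an interaction term, differed from 0 in 10 cases. For Jup it was -2.94 against myoepithelial, -2.28 against HS and -2.07 against AV cells on the log2 scale. For F11r it was -1.10 against HS and -0.78 against AV cells, and for Pvrl2 -1.62 and -1.83. Against AV cells it was -1.15 for Ctnnb1, 1.56 for Cdh5 and 1.42 for Cldn5.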

How the results depend on the processing

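The count of 7 members called lower in aged vascular endothelial cells became 2 without cells with a UMI of Sele, Selp, Vwf or Ackr1. Under the other alternatives 7 to 9 members were called, the added ones being Cdh5 (lower) or Pecam1 (higher), and leaving out each mouse gave 7 to 8. The count of all genes called fell from 2099 to 306 and 1310 without and with only such cells. In myoepithelial cells the count of 3 became 1 with DESeq2, and 0 to 2 on leaving out a mouse (0 without Young C or Aged D). In AV cells the count of 1 became 3 with DESeq2 and 3 with no filter, and 1 to 3 on leaving out a mouse. With no filter on low counts fibroblasts gave 4 in place of 1 and Mb macrophages 1 in place of 0. The 6 members whose change differed from that in AV cells became 3 with DESeq2, and 3 to 8 on leaving out a mouse (3 without Young A).

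Jam2 with age turned to -0.26 without cells with such a UMI, -0.062 with only them and -0.27 with library totals, and ran from -0.013 (without Young A) to 0.20 on leaving out a mouse. Against myoepithelial cells Jup turned to 0.30 in young mice alone and Ctnnb1 to -0.081 in aged mice alone. Against HS cells Jup turned to 0.28 in young mice alone, F11r to -0.044 and Pvrl2 to -0.70 in aged mice alone, and Pvrl2 ran from -0.20 (without Young A) to 0.24 on leaving out a mouse, below 0 also without Young B and C at -0.082 and -0.043. Against AV cells Ctnnb1 turned to -0.13 in aged mice alone. The cause was not tested in any of these.

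The mouse letters name different animals and the same-letter correlations of deviations were -0.067, -0.092 and 0.009, so the letters do not pair the mice. With the letter as a replicate block 8 members were called in aged vascular endothelial cells (Pecam1 higher, at 0.60), 0 in myoepithelial, 2 in pericyte-labelled and 1 each in fibroblasts, HS and AV cells. Few cells stand behind the lymphatic sums (28 cells) and the aged pericyte sums (118 cells).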
